A study of Mus musculus with 6 samples.

Results

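Among the genes of the sodium-potassium pump, 4 were followed in mouse brown fat after a day in the cold: Atp1b1, Atp1b2 and Atp1b3, which encode beta subunits, and Fxyd1, which encodes phospholemman, a small regulatory partner of the pump. They were listed by name with their reads per library already known, as 4 of 8129 genes with a read, so their differences between cold and control are given as a description, without a test. All 4 had at least 1 read, and 3 of them passed the filter on low counts that left 2093 genes for testing. Atp1b2 did not pass. Reads of Ckm, the creatine kinase of skeletal muscle, were carried along as a gauge of muscle in each library.

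The sodium-potassium pump is a membrane ATPase that exports sodium and imports potassium, and the gradients it builds drive many transporters and set the membrane potential. Its alpha subunit binds and splits ATP, its glycosylated beta subunit is needed for folding and for delivery of the complex to the cell surface, and FXYD proteins tune its affinity for ions. Phospholemman is best known in heart and skeletal muscle, where it is a target of protein kinase A, the kinase activated by cyclic AMP. Brown adipocytes receive noradrenaline from sympathetic nerves in the cold, and this signal raises their cyclic AMP.

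The data are full-length cDNA counts from nanopore sequencing of poly(A) RNA of interscapular brown adipose tissue, from male wild type C57BL/6N mice aged 20 weeks. The cold group is 3 mice held alone at 4 °C for 24 h, mice 4, 11 and 15. The control group is 3 mice, mice 2, 9 and 14, for which general husbandry at 22 to 24 °C is stated. The labels describe the cold treatment on every sample and do not say how the controls were housed, so the groups follow the sample titles, and single housing and cold cannot be told apart. Each library is 1 mouse number, and p values measure the spread between these libraries. In bulk tissue, fewer cells of a type and less RNA per cell cannot be told apart.

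Cold libraries held 2922939 to 2982630 counted reads and control libraries 1014812 to 1849351, so every cold library was the deeper one. Levels are normalised read counts, in CPM, each gene's reads as a proportion of the scaled library size. A floor of 3 reads is 0.988 to 1.01 CPM in cold libraries and 1.62 to 3.08 CPM in control libraries, and floors cover counting error only. Most brown fat genes were present in both groups. Of 12 markers on that list, 10, 12 and 11 had reads in cold 4, 11 and 15, and 10 in each control library. Ppargc1a and Prdm16 had no read in any control. Ucp1, the uncoupling protein of heat production, averaged 4129 ± 45.0 CPM in cold and 4520 ± 335 CPM in control libraries (SD, n = 3 each). Skeletal muscle RNA varied most. The summed level of 26 muscle markers was 340, 3863 and 19008 CPM in cold mice 4, 11 and 15, against 252, 815 and 1330 CPM in control mice 2, 9 and 14. Cold 11 and cold 15 thus stood above every control, and cold 4 lay within the control range. Of these markers 24 had reads and Myh2 and Ampd1 had none, 13 were tested, and none passed edgeR's test at an adjusted p under 0.05 (5 of them were called without cold 4, and 6 by DESeq2). Ckm itself was 8.06, 91.4 and 668 CPM in cold 4, 11 and 15, against 8.65, 19.5 and 40.8 CPM in control 2, 9 and 14. Its log2 change was 3.47 ± 1.80 (SE; edgeR adjusted p = 0.223). Without cold 15 it was 1.10.

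The 3 stretches of sequence are shown because the counts bear on where these transcripts start and what they encode. The first is the coding sequence of Fxyd1, read from the GENCODE M21 transcript Fxyd1-201 on GRCm38 (chr7:31051968-31054366, minus strand, spliced). It has 276 bases, or 92 codons, and the capitals mark codons 29 to 32, which spell the FXYD motif that names the family.
Fxyd1 coding sequence: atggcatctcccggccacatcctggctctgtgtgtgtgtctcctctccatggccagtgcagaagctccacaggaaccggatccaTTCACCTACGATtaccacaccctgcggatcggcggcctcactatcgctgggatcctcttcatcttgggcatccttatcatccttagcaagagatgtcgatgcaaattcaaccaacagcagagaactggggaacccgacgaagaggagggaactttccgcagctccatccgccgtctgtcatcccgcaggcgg
The others are windows from the RefSeq promoter table (GRCm38.p6), 300 bases each, chosen for the beta gene with the largest difference and for the member with several start sites. Capitals mark matches, sought on either strand, to any of 4 short motifs, and no matches overlapped. The cyclic AMP response element was searched as TGACGTCA. The TATA box was searched with the letters TATAAA. For the CCAAT box the motif is its own name. The GC box, a site known for Sp1 family factors, was searched as GGGCGG. The Atp1b1 window is chr1:164458306-164458605 and the Fxyd1 window is chr7:31054804-31055103, both on the minus strand.
Atp1b1 promoter window: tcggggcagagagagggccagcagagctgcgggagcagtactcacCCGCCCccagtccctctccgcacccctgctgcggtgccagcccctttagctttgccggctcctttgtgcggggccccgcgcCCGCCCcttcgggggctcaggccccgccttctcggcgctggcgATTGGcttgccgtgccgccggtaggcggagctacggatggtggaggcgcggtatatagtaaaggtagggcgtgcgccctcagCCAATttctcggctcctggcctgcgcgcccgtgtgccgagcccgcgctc
Fxyd1 promoter window: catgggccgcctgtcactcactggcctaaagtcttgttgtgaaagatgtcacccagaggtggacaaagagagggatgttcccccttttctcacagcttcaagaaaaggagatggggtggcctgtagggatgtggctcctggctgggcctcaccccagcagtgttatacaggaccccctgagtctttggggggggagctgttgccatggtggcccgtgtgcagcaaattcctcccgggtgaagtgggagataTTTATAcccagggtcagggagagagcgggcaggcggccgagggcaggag
The Atp1b1 window held 2 CCAAT and 2 GC box matches, and the Fxyd1 window held 1 match to the TATA box letters. Both Atp1b3 windows in the table together held 6 GC box matches. Of 32851 promoter windows in the table, 37.4% held a CCAAT match, 35.7% a GC box match, 13.6% a TATAAA match and 1.79% the cyclic AMP response element, which neither window held. A match describes the letters only.

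Atp1b1 encodes the widespread beta1 subunit and lies on chromosome 1 from 164437109 to 164458355 (GRCm38, minus strand, ENSMUSG00000026576). Its reads were 40, 41 and 178 in cold 4, 11 and 15, against 5, 0 and 3 in control 2, 9 and 14. As levels these were 13.4, 13.6 and 58.6 CPM in the cold libraries, against 2.70, 0 and 1.80 CPM in the control libraries. All 3 cold libraries lay above all 3 controls, cold 15 stood well above the other cold libraries, and 2 of the controls were at or under their floors of 3.08 and 1.80 CPM. Atp1b1 was the only one of the 3 members past the filter whose groups did not overlap in this way. Over all 2093 tested genes 47.8% had groups that did not overlap, 26.0% with every cold library above every control, and 44.0% had an unadjusted p under 0.05. Since Atp1b1 passed the filter through its cold libraries alone, nothing is read from that count.

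The mean level of Atp1b1 was 28.5 ± 26.1 CPM in cold and 1.50 ± 1.38 CPM in control libraries (SD, n = 3 each), with a log2 change of 3.98 ± 0.96 (SE). Pooled over libraries, 259 cold and 8 control reads gave a ratio of 16.1, with an exact 95% counting interval of 8.04 to 37.6 that leaves out the variation between mice. Cold 15 supplied 68.7% of the cold reads, and it was also the library with the most muscle reads. Without cold 15 the log2 change was 2.91. In cold 4, where muscle markers lay within the control range, the level was 13.4 CPM. The 40 reads of this 1 mouse stood 7.53-fold over the pooled controls. The counting interval, 3.48 to 18.6, again leaves out the variation between mice. Cold 4 was singled out by its muscle markers, and Atp1b1 was listed with its reads known. Neither counting interval is therefore a test of cold against control. Cold 11, with 3863 CPM of muscle markers, had nearly the same Atp1b1 level, 13.6 CPM. What part muscle has in these Atp1b1 levels, the high value of cold 15 included, was not tested. Thinned to the 1014812 reads of the smallest library, Atp1b1 kept 9, 16 and 61 reads in cold 4, 11 and 15, against 3, 0 and 1 in control 2, 9 and 14. Thinning draws from the same reads, so this order is no separate result. At equal depth Atp1b1 did not pass the filter.

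**Figure D1:**
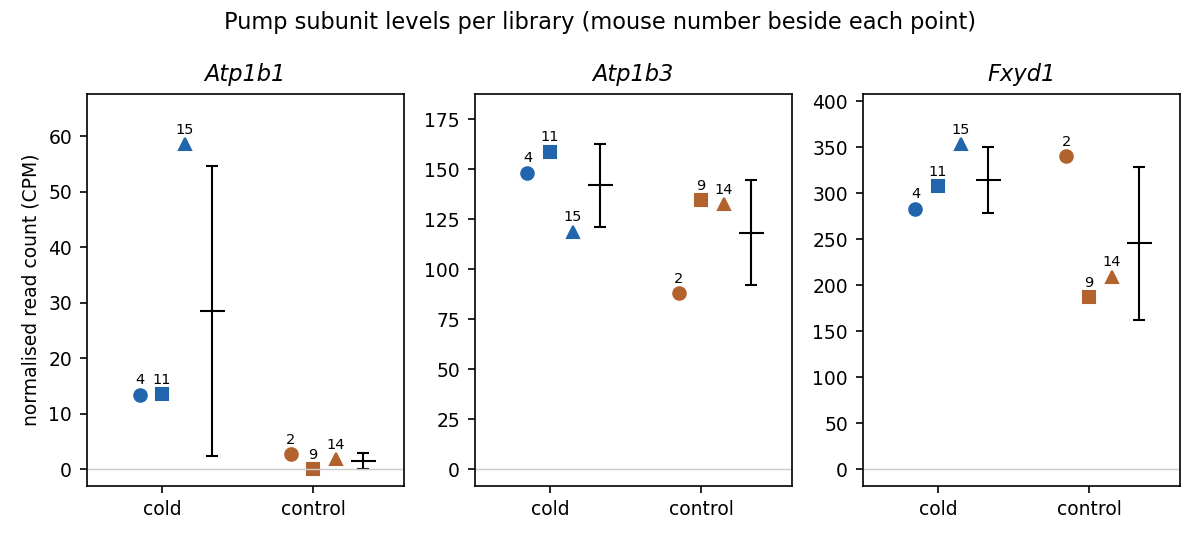
Normalised read count (CPM, linear axis) of Atp1b1, Atp1b3 and Fxyd1 in each cold and control library, with the mouse number beside each point and the mean ± SD (n = 3) as a black bar. The groups are apart for Atp1b1 (13.4 to 58.6 CPM in cold, 0 to 2.70 CPM in control), and they overlap for Atp1b3 and Fxyd1.

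All 267 reads of Atp1b1 were assigned to 1 of its 4 annotated transcripts, Atp1b1-201, which is protein-coding, has 6 exons and is 2580 bases long. That transcript begins at base 164458355, inside the promoter window shown above. Its exons share 575 bases with Nme7 on the opposite strand, a gene that had 4 reads in all. No other near-identical copy of Atp1b1 was found among the annotated transcripts.

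Atp1b3 encodes the beta3 subunit and lies on chromosome 9 from 96332655 to 96364442 (minus strand, ENSMUSG00000032412). It was the beta gene with the most reads in every library. Its levels were 148, 159 and 119 CPM in cold 4, 11 and 15, against 88.2, 135 and 133 CPM in control 2, 9 and 14. The groups overlapped: cold 15 lay below control 9 and 14, and control 2 was the lowest of the 6. The mean was 142 ± 20.7 CPM in cold and 118 ± 26.3 CPM in control libraries (SD, n = 3 each), a log2 change of 0.27 ± 0.23 (SE) with a 95% interval of -0.24 to 0.78. Cold 15, with the most muscle reads, was the lowest cold library for Atp1b3. All 1798 reads fell on Atp1b3-201, a transcript of 7 exons and 1994 bases, and the processed copy Gm1848 had 0 reads.

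Atp1b2 encodes the beta2 subunit, known as an adhesion molecule on glia, and lies on chromosome 11 from 69599736 to 69605942 (ENSMUSG00000041329). It had 1 read in all 6 libraries together, in cold 11. With 0 reads, each of the other libraries allows a level up to its floor, at most 3.08 CPM in control 9. The 12 markers of Schwann cells and nerve were also low: 7 of them, Sox10 and Th among them, had no read, and their summed level was 4.70 to 12.8 CPM in cold and 8.65 to 20.6 CPM in control libraries. No comparison of Atp1b2 between cold and control was possible with 1 read.

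The make-up of the beta reads differed between the libraries. Atp1b1 held 8.30%, 7.85% and 33.0% of them in cold 4, 11 and 15, against 2.98%, 0% and 1.34% in control 2, 9 and 14. The 95% Wilson intervals were 6.15 to 11.1%, 5.84 to 10.5% and 29.2 to 37.1% in the cold libraries. The highest upper bound in the controls was 6.78%, in control 2, so its interval overlapped those of cold 4 and cold 11. In reads per kb of annotated transcript, Atp1b1 held 6.54%, 6.18% and 27.6% in the cold libraries, against 2.32%, 0% and 1.04% in the control libraries. Full-length cDNA reads may not need this division by length, so it is given as an alternative only. On both scales every cold library lay above every control. These shares are built from the Atp1b1 reads given above, so that order is no separate result. Atp1b3 held most of the beta reads everywhere, at least 67.0% by reads. The coding sequences of the beta genes are distinct enough to be told apart by long reads: aligned bases of the leading transcripts were 56.4% identical between Atp1b1 and Atp1b3, 59.0% between Atp1b1 and Atp1b2, and 59.1% between Atp1b2 and Atp1b3.

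Fxyd1 lies on chromosome 7 from 31051678 to 31057199 (minus strand, ENSMUSG00000036570). Its levels were 283, 307 and 353 CPM in cold 4, 11 and 15, against 340, 187 and 209 CPM in control 2, 9 and 14. The groups overlapped through control 2, which lay above cold 4 and 11. The mean was 315 ± 35.8 CPM in cold and 246 ± 82.8 CPM in control libraries (SD, n = 3 each), a log2 change of 0.36 ± 0.24 (SE) with a 95% interval of -0.18 to 0.89. Without control 2 the log2 change was 0.65, and without control 9 it was 0.16. In the cold group the order of the libraries was the same for Fxyd1 and for the muscle markers, while in the control group control 2 had the most Fxyd1 and the least muscle. Per kb of transcript, the mean Fxyd1 level was 530 CPM in cold and 413 CPM in control libraries. On that scale Atp1b3 was at 71.2 CPM in cold and 59.4 CPM in control libraries. Atp1b1 was at 11.1 CPM in cold and 0.582 CPM in control libraries, so Fxyd1 was the most abundant member on that scale too. Not divided by length, Atp1b3 was at 142 CPM in cold and 118 CPM in control libraries. The gap between Fxyd1 and Atp1b3 thus depends on the scale, and full-length reads may not need the division.

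**Figure D2:**
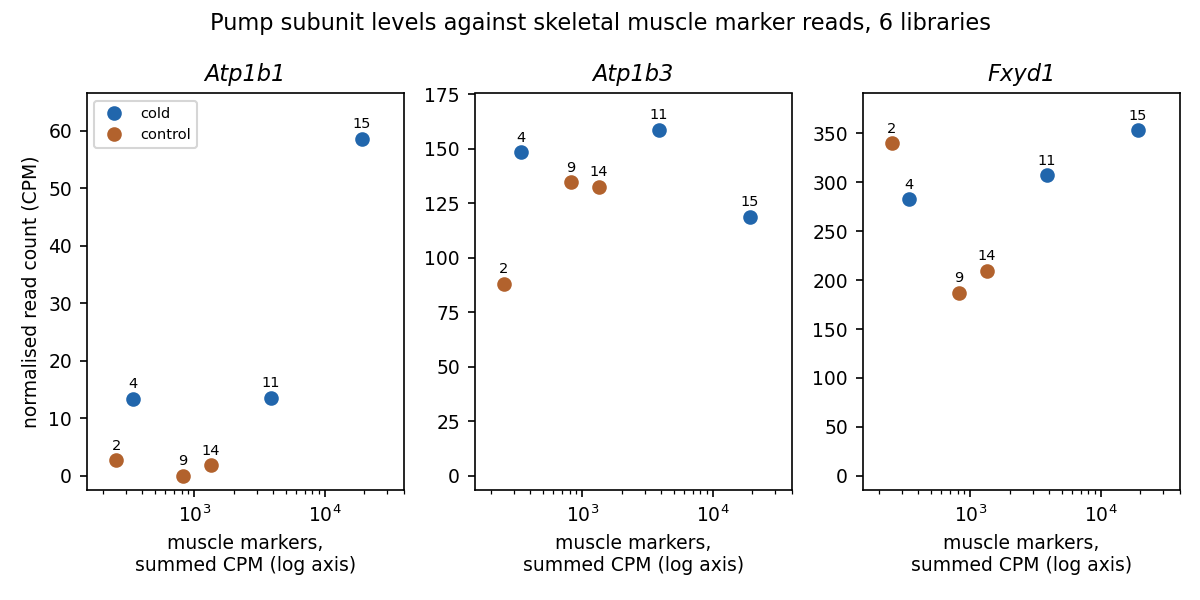
Normalised read count (CPM) of Atp1b1, Atp1b3 and Fxyd1 on the linear vertical axis against the summed level of 26 skeletal muscle markers (CPM, log axis) in the 6 libraries, with mouse numbers. Cold 15, at 19008 CPM of muscle markers, has the highest Atp1b1 and Fxyd1 and the lowest Atp1b3 of the cold libraries, and cold 4, at 340 CPM, lies within the muscle range of the controls.

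Reads of Fxyd1 fell on 13 of its 17 annotated transcripts. Fxyd1-201 held 52.6% and Fxyd1-212 held 35.1% of the 4005 reads. These transcripts begin 803 and 814 bases upstream of the RefSeq start of the gene at base 31054853, outside the window shown above. The transcripts with a read that carry the whole coding sequence printed above number 9, and they took 99.6% of the Fxyd1 reads, so nearly all reads were assigned to 1 protein-coding sequence with different beginnings. The rule by which the authors placed a read that fits several of these overlapping transcripts is unknown here, so the shares below depend on that choice.

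Grouped by start, 7 transcripts begin more than 500 bases upstream of the RefSeq start (the distal start) and 4 begin within 100 bases of it (the proximal start). The proximal start took 4.63%, 6.46% and 10.2% of the Fxyd1 reads in cold 4, 11 and 15, against 3.50%, 4.40% and 4.30% in control 2, 9 and 14. With both flow cells summed each cold library was above each control, but this separation was not seen on either flow cell alone. On flow cell 1 control 14 (7.14%) lay above cold 4 (5.22%) and cold 11 (6.25%), and on flow cell 2 control 9 (6.49%) lay above cold 4 (3.92%). With both summed, the Wilson intervals of cold 4 (3.40 to 6.26%) and cold 11 (5.05 to 8.23%) overlapped those of all 3 controls. The widest control interval was 2.24 to 8.43%, in control 9. The interval of cold 15, 8.49 to 12.1%, lay above those of all 3 controls, for which the bounds were 2.32 to 5.24% in control 2 and 2.62 to 6.97% in control 14. As levels, transcripts of the proximal start were at 13.1, 19.9 and 35.9 CPM in cold 4, 11 and 15, against 11.9, 8.22 and 9.00 CPM in control 2, 9 and 14. The order of the cold libraries was again that of their muscle markers, whose part in it was not tested. The distal start was at 270, 287 and 318 CPM in cold 4, 11 and 15, against 328, 179 and 200 CPM in control 2, 9 and 14, with groups that overlapped.

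**Figure D3:**
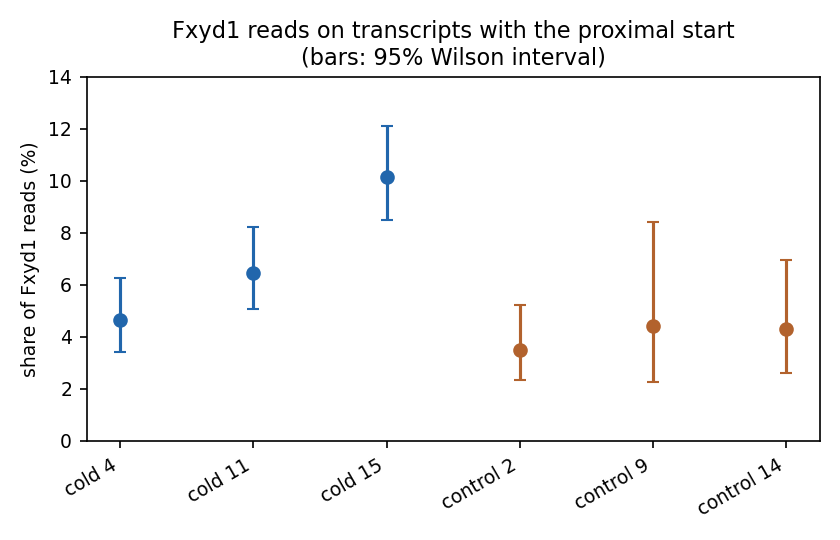
Share of the Fxyd1 reads (%, vertical axis) assigned to the 4 transcripts with the proximal start, in each cold and control library, with 95% Wilson intervals as bars. Cold 15, at 10.2%, stands above the other libraries, and the intervals of cold 4 and cold 11 overlap those of the controls.

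Other FXYD genes, the remaining beta gene and the genes of the related proton-potassium pumps were read in the same fit as all genes. Fxyd5, which encodes dysadherin, had 22, 19 and 17 reads in cold 4, 11 and 15, against 2, 8 and 10 in control 2, 9 and 14. Its level was 6.42 ± 0.900 CPM in cold and 5.10 ± 3.65 CPM in control libraries (SD, n = 3 each), and its log2 change of 0.47 ± 0.52 did not pass (edgeR adjusted p = 0.517). Fxyd2, the gamma subunit gene best known from kidney, had 1 read, in cold 15. Atp4b, the beta subunit gene of the gastric proton pump, had 0 reads in each cold library and 2, 4 and 4 reads in control 2, 9 and 14, too few to pass the filter. No read was seen for Atp1b4, Fxyd3, Fxyd4, Fxyd6, Fxyd7, Atp4a or Atp12a.

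**Figure D4:**
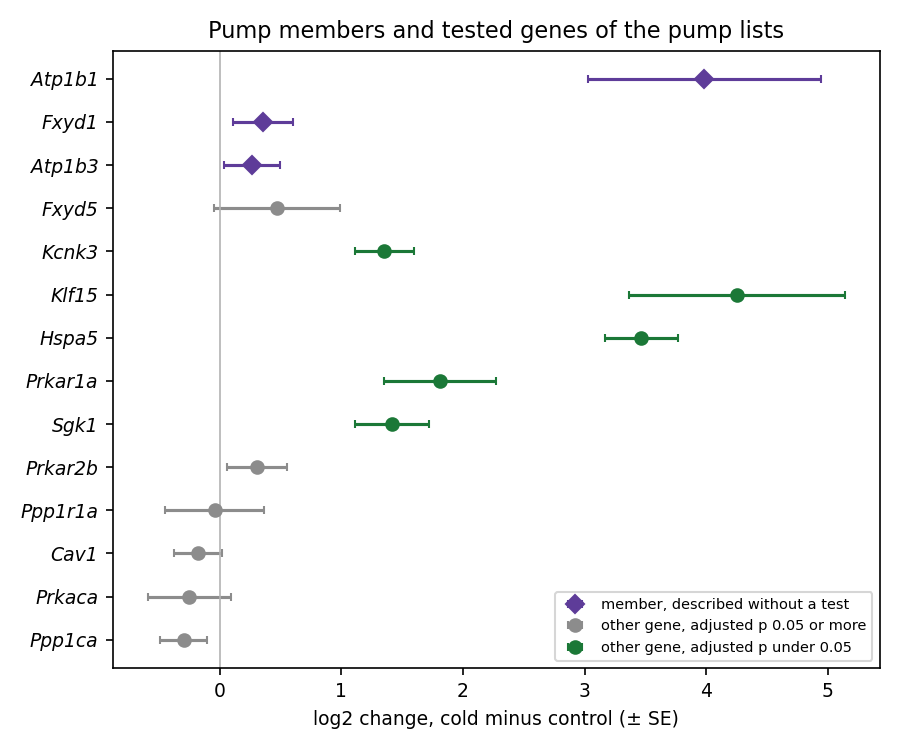
Log2 change, cold minus control, with its standard error (horizontal bars) for the 3 members past the filter (diamonds) and 11 tested genes of the lists of other FXYD partners, ion transport, and pump regulation and anchoring (circles, green where the adjusted p is under 0.05). Atp1b1 is at 3.98 and the other beta member, Atp1b3, at 0.27, while Kcnk3 is at 1.35.

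Other genes of sodium, potassium and calcium transport mostly had few or no reads in these libraries. Of 63 listed genes 26 had reads and 1 was tested, Kcnk3, which encodes a potassium leak channel of the resting membrane. Kcnk3 rose, with 225, 181 and 154 reads in cold 4, 11 and 15, against 41, 25 and 42 in control 2, 9 and 14 (62.1 ± 12.5 CPM in cold and 24.4 ± 1.90 CPM in control libraries, log2 change 1.35 ± 0.24, edgeR adjusted p = 0.00176). Every cold library lay above every control, which was so for 26.0% of all tested genes, and 18.1% were called higher in cold. The exons of Kcnk3 share 229 bases with Gm9899, which had 5 reads. The calcium pump genes Atp2a1 and Atp2a2 had 15 and 3 reads in all, and 12 of the reads of Atp2a1, the form of fast muscle, were in cold 15.

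Of 34 genes listed for pump regulation, anchoring or folding, 21 had reads and 9 were tested. Of these 4 rose and 0 fell, beside 18.1% of all tested genes called higher and 15.1% called lower in cold. Klf15 and Prkar1a, among the rises, passed the filter through their cold libraries, so nothing is read from that count. The list also holds general kinase, chaperone and transcription factor genes that are not particular to the pump. The median log2 change of the 9 tested genes was 0.31, against 0.04 over all tested genes. Hspa5, the chaperone BiP of the endoplasmic reticulum, where beta subunits fold, rose to 171 ± 33.2 CPM in cold, against 15.8 ± 5.27 CPM in control libraries (log2 change 3.47 ± 0.30, edgeR adjusted p = 2.8e-05). Klf15, a transcription factor gene induced by glucocorticoids, rose to 22.4 ± 15.0 CPM, against 1.23 ± 1.08 CPM in control libraries (4.25 ± 0.89, edgeR adjusted p = 0.00580), and this call was lost without control 2 (4.76, edgeR adjusted p = 0.103). The cold 15 level of Klf15, 6.59 CPM, was the lowest of the cold group. Control 2 and 9 had 3 and 2 reads of it and control 14 had none, so every control was at or under its floor of 3 reads. Sgk1, a kinase that promotes sodium transport in epithelia, rose to 16.8 ± 3.59 CPM, against 6.36 ± 0.903 CPM in control libraries (1.42 ± 0.31, edgeR adjusted p = 0.00495). The fourth rise was of Prkar1a, a regulatory subunit of protein kinase A, at 7.08 ± 0.446 CPM in cold and 1.82 ± 1.23 CPM in control libraries (1.81 ± 0.46, edgeR adjusted p = 0.0120). That call was lost without control 14 (1.50, edgeR adjusted p = 0.0636). Without cold 11 and 15 together, which leaves 1 cold library, the log2 change of Prkar1a was 1.78. Canx, a chaperone gene of the same list, did not pass the filter with all libraries. It was called without control 14 (2.78, edgeR adjusted p = 0.0234), control 2 (2.16, edgeR adjusted p = 0.0377) or control 9 (2.53, edgeR adjusted p = 0.0242). With no count filter it was called too (2.61, edgeR adjusted p = 0.00387). The other protein kinase A genes tested did not pass, Prkaca at -0.25 ± 0.34 and Prkar2b at 0.31 ± 0.25, nor did the caveolin gene Cav1 at -0.18 ± 0.20. At equal depth, and on either flow cell alone, 2 of the 4 calls remained, those of Hspa5 and Sgk1.

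Likeness of pattern was measured as the root mean square difference of centred log2 levels over the 6 libraries, among tested genes of at least 32 CPM. The profiles nearest to Atp1b1 were those of Fabp3 (0.56), a fatty acid binding protein gene, Adtrp (0.66), a lipid hydrolase gene, and Cyp4b1 (0.73), a cytochrome P450 gene, where the median over 931 genes was 1.92 and Ckm was at 1.72. The nearest to Atp1b3 were Vdac2 (0.095), a channel gene of the outer mitochondrial membrane, Oxa1l (0.098) and Gpd1 (0.098), with a median of 0.47 over 930 genes. The nearest to Fxyd1 were Rpl19 (0.12) and Mrpl34 (0.12), both ribosomal protein genes, and Ube2a (0.15), a ubiquitin-conjugating enzyme gene, with a median of 0.49. Likeness here reflects both the group difference and the libraries' shared composition, and carries no test.

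**Figure D5:**
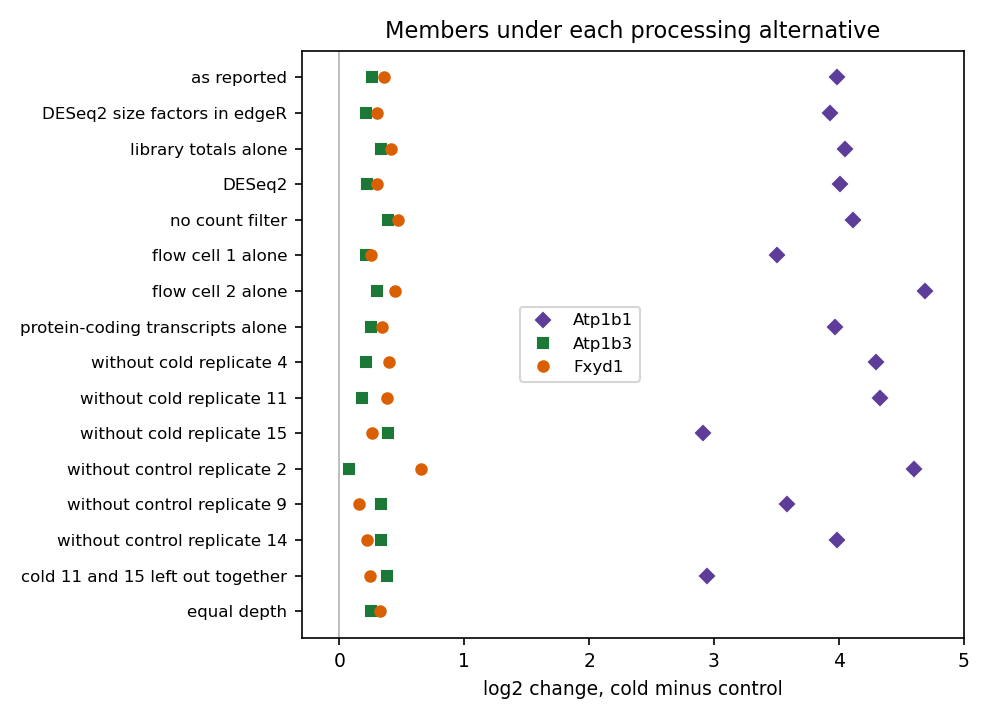
Log2 change, cold minus control (horizontal axis), of Atp1b1, Atp1b3 and Fxyd1 under the reported processing and each alternative (rows). Atp1b1 lies between 2.91 and 4.69 wherever it passed the filter, Atp1b3 between 0.08 and 0.39, and Fxyd1 between 0.16 and 0.65. The groups of Atp1b1 did not overlap, so its constant direction is no separate result.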

How the data were processed

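Poly(A) RNA, purified over 2 rounds per the labels, was made into cDNA with the TeloPrime kit for capped full-length molecules over 27 PCR cycles, and sequenced by nanopore. The extraction text names another fat depot (eWAT), and the tissue label was used. The authors deposited raw counts, reads per Ensembl transcript for each of 2 flow cells (12 files), with no normalization. Per the submitters' processing notes, minimap2 and GRCm38 were used; a minimap2 version and a rule for reads that fit several transcripts are not given in the sources used here. No molecular identifiers are named, so intervals cover counting error only.

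Counts were summed over flow cells and transcripts of a gene. With versions dropped, 14671 of 14693 transcript identifiers matched GENCODE M21, and the other 22 held at most 0.00433% of a library. Cold was compared with control by edgeR 4.0.16 (R 4.3.3): filterByExpr at a minimum count of 10, TMM scaling, robust quasi-likelihood F test and Benjamini-Hochberg adjustment over 2093 genes, with calls at adjusted p under 0.05. Standard errors were worked back from the F statistic. On data simulated at a dispersion of 0.1, the fit recovered 24 of 97 genes with an absolute log2 change of 1, and 92 of 96 with 2. It called 8 of 1824 unchanged genes. A gene that did not pass may thus still differ between the groups. Overlaps with near-identical copies were sought with blastn 2.17.0 at 90% identity over 200 bases. Some listed genes are not reported here. The members and gene lists were chosen with earlier results of these data known. Named genes were the members, Ckm, other listed subunit genes with a read, up to 3 called rises and 3 called falls of at least 10 CPM per remaining list, and for each member past the filter the 3 named genes of nearest profile. Prkar1a, Prkaca, Prkar2b, Cav1, Canx, Atp2a1 and Atp2a2 were added after their values were seen. The alternatives were DESeq2 1.42.0 and its size factors, library totals, no filter, equal depth, single flow cells, protein-coding transcripts and leaving out libraries.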

Additional observations from a re-analysis of the deposited data

How the results depend on the processing

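The direction of the log2 change was the same under every alternative that gave a value for Atp1b1, Atp1b3 and Fxyd1. For Atp1b1, whose groups did not overlap, leaving out libraries could hardly reverse it, so its constant direction is no separate result. Leaving out 1 library at a time gave 2.91 to 4.60 for Atp1b1, 0.08 to 0.39 for Atp1b3, 0.16 to 0.65 for Fxyd1 and 1.10 to 4.21 for Ckm. Atp1b1 was 3.50 on flow cell 1 alone and 4.69 on flow cell 2 alone, and at equal depth it did not pass the filter, so no value was had. With cold 11 and 15, the libraries with the most muscle reads, left out together (chosen after seeing the data), Atp1b1 was 2.94, Atp1b3 0.38 and Fxyd1 0.24, while Ckm turned to -1.46 and the calls over all genes were 201 higher and 120 lower, against 378 and 317 with all libraries. The lone cold library is then assumed to vary like the controls. The calls of the pump regulation list were 2 at equal depth, 2 on flow cell 1 and 2 on flow cell 2, where fewer reads are tested. Muscle markers called higher were 6 by DESeq2 and 0 to 5 when 1 library was left out, and 1 (Myl1) was called lower without cold 11 and 15. Without a count filter 1 further subunit gene, Atp4b, was called lower, and the median over all genes moved by 0.26. Fxyd5 spanned -0.12 (without control 2) to 0.85 (without control 9). The proximal share of Fxyd1 in control libraries was 3.48% on flow cell 2 alone, against 4.06% on both. The causes were not tested. No paired analysis was possible because cold and control mice share no numbers. Atp1b2 and most ion transport genes had no reads or counts near the floor, for reasons that were not tested.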

Other observations

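The other cell type lists give the surroundings of the pump genes. Over all tested genes 33.2% were called in either direction, 18.1% higher and 15.1% lower in cold, and the counts below are near that background or rest on few genes. Of 5 tested endothelial genes 1 rose and 1 fell. Gpihbp1, whose protein anchors lipoprotein lipase on capillaries, rose to 836 ± 70.1 CPM in cold, against 494 ± 74.4 CPM in control libraries (SD, n = 3 each; log2 change 0.76 ± 0.18, edgeR adjusted p = 0.00801). Ramp2, a receptor partner for adrenomedullin, fell to 67.4 ± 9.37 CPM in cold, against 135 ± 28.9 CPM in control libraries (-1.0 ± 0.23, edgeR adjusted p = 0.00689). Of 9 tested brown adipocyte genes 1 rose and 2 fell, 33.3% of them: Elovl3 rose (3.69 ± 0.38), and Cox8b (-0.98 ± 0.25) and Adipoq (-0.88 ± 0.16) fell, with edgeR adjusted p values of 6.1e-05, 0.0127 and 0.00220. Control 2 had the highest Cox8b level of the controls, and without it the change was -0.61. The call of Cox8b was lost without cold 11 (-0.84, edgeR adjusted p = 0.0527). With cold 11 and 15 left out together, which leaves 1 cold library, Gpihbp1 was at 0.72 (edgeR adjusted p = 0.169), Ramp2 at -1.18 (edgeR adjusted p = 0.0641) and Cox8b at -0.94 (edgeR adjusted p = 0.0918), so these calls were lost while the changes stayed near their size with all libraries. Of the white adipocyte list only Retn was tested and rose (1.07 ± 0.27, edgeR adjusted p = 0.0121), a call lost without cold 4 (0.81, edgeR adjusted p = 0.0639). The single tested genes of smooth muscle (Acta2) and macrophages (C1qa) and the 5 of red blood cells did not pass. No gene of the Schwann cell and nerve list passed the filter.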
